A study of Mus musculus with 3 samples.

Results

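Amino acid transporters move amino acids across the plasma membrane and out of lysosomes, and most belong to a few families of solute carriers. Some light chains of the SLC7 family reach the cell surface only when joined to a heavy chain of the SLC3 family, whereas the cationic carriers of the SLC7 family act alone. In macrophages these carriers supply arginine to arginase and nitric oxide synthase, cystine to glutathione synthesis, and leucine and glutamine to growth signaling by the mTORC1 kinase. The genes described here are those whose array symbol begins with Slc1a, Slc3a, Slc6a, Slc7a, Slc36a, Slc38a or Slc43a, which held for 63 of 18193 genes. Genes were taken by name alone, but the families and the gene lists used below were chosen with earlier results of these data known. There were 21 genes of the Slc6a group, 16 of Slc7a, 9 of Slc38a, 7 of Slc1a, 5 of Slc36a, 3 of Slc43a and 2 of Slc3a. The rule also took in 3 genes named for lying on the strand opposite a carrier, *Slc7a6os*, *Slc36a1os* and *Slc6a19os*, and carriers of monoamines, taurine, creatine and nucleobases that share a family with the amino acid carriers.

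Expression was measured on 3 Affymetrix arrays of total RNA from macrophages, with 1 array in each group, to compare macrophages of primary and metastatic tumor with each other and with macrophages of healthy mice. BMDM were bone marrow-derived macrophages, differentiated in culture from the marrow of healthy mice, whose strain and age the sources used here do not state. The tumor-associated macrophages (TAMs) came from mice bearing 4T1, a mammary carcinoma line. Per the study's methods, the line was inoculated into the fat pad of BALB/c mice at 5 to 6 weeks of age. At 5 weeks after inoculation pTAMs were taken from the primary tumor and mTAMs from the metastatic lung of the same model. Cells of every group had been sorted by antibodies to CD11b and to the macrophage antigen that *Adgre1* encodes. The sources used here do not state how many animals went into each array. Without replicates there is no test and no error across animals, and all differences below describe these arrays.

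Values are log2 RMA values, in which 1 unit is a 2-fold difference. A value at or below 5.3 was treated as background, and differences of at least 1 were counted as higher or lower. Of the 63 genes, 35 exceeded this floor (33 in BMDM, 34 in pTAMs, 35 in mTAMs). The other 28 included carriers known from epithelium and nerve cells, among them *Slc1a1*, *Slc1a2*, *Slc1a3*, *Slc3a1*, *Slc6a14*, *Slc6a19*, *Slc7a9* and *Slc7a10*. Just inside the floor lay *Slc36a3* (5.40 at its highest) and *Slc43a1* (5.46), and just outside lay *Slc6a13* (5.29) and *Slc7a3*, at the floor itself on all arrays. As a second measure of background, 86 probe sets of sensory receptor genes had 95% of their values at or below 5.56. *Slc36a3*, *Slc43a1*, *Slc6a7* (5.50) and *Slc7a13* (5.48) did not exceed that level on any array. In addition, 8 of the 35 genes (22.9%) had values within 0.1 of each other on the 3 arrays, against 14.6% of all 12025 genes above the floor. These were *Slc1a4*, *Slc38a3*, *Slc43a1*, *Slc6a2*, *Slc6a7*, *Slc6a9*, *Slc6a17* and *Slc7a13*, all between 5.40 and 6.77.

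Markers of macrophages were above the floor in all groups. The summed markers of neutrophils, epithelium or carcinoma, fibroblasts and mast cells or basophils were higher on both TAM arrays. All 11 macrophage markers, among them *Csf1r*, *Cd68* and *Adgre1*, lay above the floor on the 3 arrays, but single markers differed. *Adgre1*, the gene of the sorting antigen, was 11.93, 10.00 and 10.06, 3.81-fold and 3.66-fold lower in pTAMs and mTAMs than in BMDM. At least 2-fold higher than in BMDM were 5 macrophage markers in pTAMs and 3 in mTAMs. The log2 of the summed level of the 11 was 15.63 in BMDM, 15.68 in pTAMs and 15.56 in mTAMs. For 10 neutrophil markers this sum was 10.71, 15.00 and 16.19, in the same order of groups. For 11 markers of epithelium or carcinoma it was 8.73, 12.14 and 11.27, with 4, 9 and 8 of them above the floor. Fibroblast markers gave 8.25, 10.19 and 12.34, and markers of mast cells or basophils 8.04, 10.29 and 12.71. Lung epithelium gave 8.37, 8.48 and 12.40, alveolar macrophages 13.03, 12.67 and 14.45, and lymphocytes 8.48, 8.54 and 8.62. The alveolar macrophage sum in BMDM was mostly that of *Fabp5* (12.91, 11.82 and 12.67). Of the 9 alveolar macrophage markers 3, 6 and 9 were above the floor. In mTAMs 8 of them were at least 2-fold higher than in pTAMs and 0 were lower (median 2.30). *Krt14* and *Cldn7* were at or below the floor in pTAMs and mTAMs, as were *Lum*, *Thy1*, *Mcpt4*, *Tpsb2* and *Fcer1a*. In material of this kind, fewer cells of a type and less RNA per cell cannot be told apart. The part of these other cells in the transporter values was not tested.

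**Figure D1:**
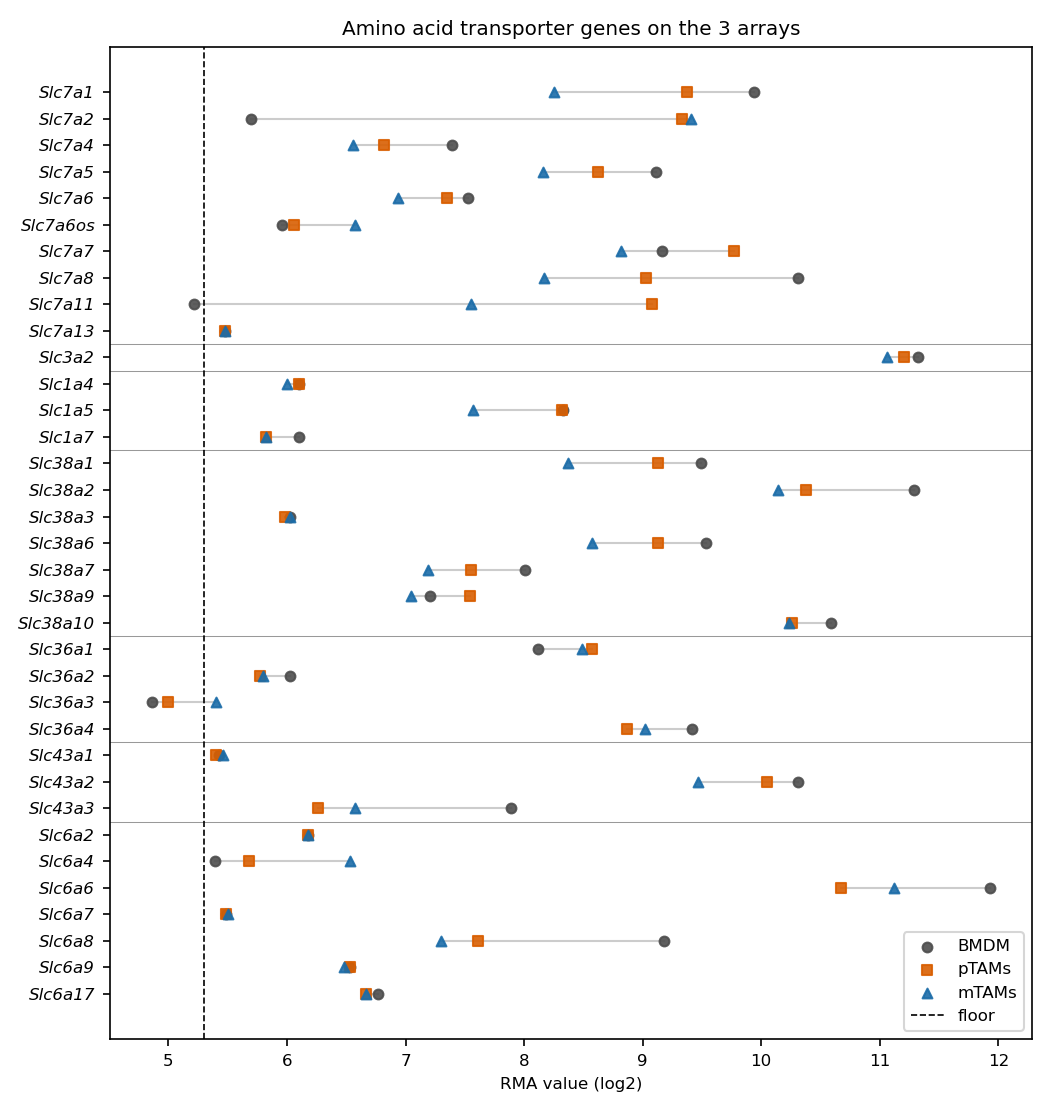
RMA values (horizontal axis, log2) of the 35 genes that exceeded the floor, 1 row per gene, grouped by family, with 1 marker for each of the BMDM, pTAM and mTAM arrays and the floor of 5.3 as a dashed line. *Slc7a2* and *Slc7a11* lie far to the right in both kinds of TAM, whereas *Slc7a1*, *Slc7a8*, *Slc6a8* and *Slc43a3* lie to the left of their BMDM values.

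Few transporter genes differed by 2-fold, in shares near those of all genes. Against BMDM, 34 of the 63 genes could be compared in pTAMs, of which 2 were at least 2-fold higher (*Slc7a11* and *Slc7a2*) and 4 lower (*Slc43a3*, *Slc6a8*, *Slc7a8* and *Slc6a6*). Over all 11859 compared genes, 8.78% were higher and 7.50% lower. The median difference of the transporter genes was -0.15 and that of all compared genes -0.05. In mTAMs 35 genes were compared, and 3 were higher (*Slc7a2*, *Slc7a11* and *Slc6a4*) and 6 lower (*Slc7a8*, *Slc6a8*, *Slc7a1*, *Slc43a3*, *Slc38a2* and *Slc38a1*). Here 11.5% of 11945 genes were higher and 14.4% lower, and the medians were -0.28 and -0.11. Between mTAMs and pTAMs none of 35 was higher and 2, *Slc7a11* and *Slc7a1*, were lower, against 5.36% and 2.58% of 11801 genes, with medians of -0.08 and -0.06. Both comparisons with BMDM used the same array. Of the 27 genes that varied by more than 0.1, 14 (51.9%) had BMDM above pTAMs and pTAMs above mTAMs, which was also the order of 38.4% of 10267 genes in all. Among probe sets of one gene that exceeded the floor on both arrays, differences had an SD of 0.35, 0.44 and 0.26 in the 3 comparisons over all genes and of 0.32, 0.41 and 0.22 over the transporter genes. Variation among animals, sorts and arrays is not part of this spread.

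The genes of the carriers of arginine differed in opposite directions. *Slc7a2*, which encodes the cationic carrier CAT2, was 5.70 in BMDM, 9.33 in pTAMs and 9.41 in mTAMs. It was thus 12.4-fold higher in pTAMs and 13.1-fold higher in mTAMs, and the 2 kinds of TAM differed by 0.08. *Slc7a1*, which encodes the related carrier CAT1, had values of 9.94, 9.37 and 8.25 on these arrays. It was 3.23-fold lower in mTAMs than in BMDM and 2.17-fold lower than in pTAMs, and in pTAMs it was 1.48-fold lower than in BMDM. Hence the mRNA of CAT2 was high in both kinds of TAM, and that of CAT1 was lowest in mTAMs. Other probe sets bore on both genes. A second one of *Slc7a2* was 5.21 in BMDM, 7.87 in pTAMs and 8.01 in mTAMs, another was 4.66, 7.42 and 7.39, both at background in BMDM, and the last was at background throughout. The second probe set of *Slc7a1* gave -0.59, -1.72 and -1.13 in the 3 comparisons, close to -0.57, -1.69 and -1.12 from the one used, while the third lay at or below 4.90 throughout. *Slc7a4*, a member of the same subfamily by sequence, was 7.39 in BMDM, 6.82 in pTAMs and 6.56 in mTAMs, all within 2-fold, whereas its second probe set was 6.49 in BMDM and at background in pTAMs (4.96) and mTAMs (5.03).

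The enzymes that use arginine were read from a list of arginine and polyamine genes. *Arg1*, which encodes arginase 1, was 3.80 in BMDM, 13.86 in pTAMs and 12.54 in mTAMs, at least 377-fold and at least 151-fold higher in the TAMs. *Arg2*, which encodes the mitochondrial arginase, was 4.45, 11.02 and 11.92, at least 52.7-fold and at least 98.4-fold higher. *Arg1* was 2.5-fold lower in mTAMs than in pTAMs, and *Arg2* differed by less than 2-fold between them. *Nos2*, which encodes the inducible nitric oxide synthase that shares the substrate, was 5.53, 6.31 and 6.18. *Odc1*, which encodes the first enzyme of polyamine synthesis, was 2.14-fold higher in pTAMs and 2.36-fold higher in mTAMs. Against BMDM, 3 of 8 genes of this list above the floor were higher by 2-fold or more in pTAMs (median 0.72). In mTAMs 4 of 8 were higher and 1, *Srm*, which encodes spermidine synthase, was 2.04-fold lower (median 0.92). The shares higher over all compared genes were 8.78% in pTAMs and 11.5% in mTAMs, and 14.4% were lower in mTAMs.

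The gene of the cystine carrier had the largest difference of all 35 between the 2 kinds of TAM. *Slc7a11*, which encodes xCT, the light chain that brings in cystine in exchange for glutamate, was 5.22 in BMDM, 9.08 in pTAMs and 7.55 in mTAMs. Because the BMDM value lay below the floor, it was at least 13.7-fold higher in pTAMs and at least 4.76-fold higher in mTAMs. Between the TAMs it was 2.89-fold lower in mTAMs. Its only other probe set lay near the floor, with 5.79 in pTAMs and background values of 4.70 in BMDM and 5.23 in mTAMs, so it gave no difference between BMDM and mTAMs. The summed markers of epithelium or carcinoma had the same order of arrays as *Slc7a11*, and so had *Krt8*, *Krt18* (3.78, 9.77 and 8.92), *Krt19*, *Cdh1* (4.73, 9.88 and 8.16), *Wfdc2* and *Cldn3*. *Cldn4* was above the floor in pTAMs only, *Epcam* was 6.38, 6.53 and 6.53, *Krt5* was 5.42 on all arrays, and *Krt14* and *Cldn7* were at background. The macrophage markers *Cd163* (6.66, 9.69 and 7.58), *Aif1* (8.84, 11.70 and 10.62), *Itgam* and *Mertk* also had the order of *Slc7a11*, and the other macrophage markers did not. Whether other cells contributed to the *Slc7a11* values was not tested. *Slc3a2*, which encodes the heavy chain 4F2hc (CD98) that xCT needs, was 11.32 in BMDM, 11.20 in pTAMs and 11.06 in mTAMs. The values of the heavy chain thus varied by at most 0.26 among arrays on which those of the light chain varied by 3.86.

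Both subunits of the enzyme that joins cysteine to glutamate for glutathione were below BMDM in TAMs, whereas *Slc7a11* was above. *Gclc*, which encodes the catalytic subunit of glutamate-cysteine ligase, was 10.10 in BMDM, 8.21 in pTAMs and 8.04 in mTAMs, 3.71-fold and 4.17-fold lower in the TAMs. *Gclm*, which encodes its modifier subunit, was 10.75, 8.27 and 10.05. It was 5.58-fold lower in pTAMs than in BMDM and 3.43-fold higher in mTAMs than in pTAMs, opposite to *Slc7a11* in both comparisons. A second probe set of *Gclm* was 8.33, 6.13 and 7.08. Its difference between mTAMs and pTAMs was 0.95 in place of 1.78, and that between mTAMs and BMDM -1.25 in place of -0.70. *Anpep*, an aminopeptidase that frees amino acids from small peptides, was 2.46-fold and 2.91-fold lower in pTAMs and mTAMs than in BMDM. By the probe sets used, of 9 genes of the glutathione and cysteine list above the floor none was at least 2-fold higher against BMDM, and 3 were lower in pTAMs (median -0.72) and 3 in mTAMs (median -0.58). The third in mTAMs was *Gss*, glutathione synthetase, 2.17-fold lower, for which a second probe set gave -0.50 in place of -1.12. For comparison, 7.50% of all compared genes were lower in pTAMs and 14.4% in mTAMs. *Ggt5*, which encodes a gamma-glutamyl transferase, was 7.89, 7.99 and 8.06 by the probe set used, but 5.20, 6.73 and 9.06 by its second and 4.11, 4.89 and 7.13 by its last, so its difference in mTAMs was not settled.

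Among the carriers of large neutral amino acids within these families, *Slc7a8* alone passed 2-fold against BMDM. *Slc7a8*, which encodes LAT2, was 10.31 in BMDM, 9.03 in pTAMs and 8.17 in mTAMs, 2.43-fold and 4.41-fold lower. It was read from 1 probe set. *Slc7a5*, which encodes LAT1, was 9.11, 8.62 and 8.16, so its difference of -0.95 in mTAMs just missed 2-fold. Median-centering of the arrays moved *Slc7a5* past 2-fold. *Slc43a2*, which encodes the uniporter LAT4, was 10.31, 10.05 and 9.47, and *Slc7a6*, which encodes y+LAT2, was 7.53, 7.35 and 6.94. By the probe sets used, all 4 had BMDM above pTAMs and pTAMs above mTAMs. By second probe sets, however, pTAMs lay above BMDM for *Slc43a2* (7.41, 7.62 and 7.16) and *Slc7a6* (7.24, 7.37 and 6.82). *Slc43a1*, which encodes LAT3, was near background at 5.43, 5.40 and 5.46. *Slc7a7* encodes y+LAT1, which exports cationic amino acids in exchange for neutral ones, and it was highest in pTAMs, with 9.16 in BMDM, 9.77 in pTAMs and 8.82 in mTAMs. Its difference between the TAMs was -0.95.

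Promoters of genes from this family are shown because *Slc7a11* and *Slc7a8* had opposite differences on the same arrays while sharing a heavy chain, and *Slc7a1* was lowest in mTAMs. Each line gives the 150 bases before the annotated start, 5′ to 3′ on the gene's own strand, from RefSeq promoter windows of assembly GRCm38.p6. That reference is of another mouse strain than the tumor-bearing animals. Capitals mark letters of the amino acid response element, TGATGNAA, which is known as a site for ATF4 with its partners, or of the antioxidant response element core, TGACNNNGC, each on either strand and with no overlap between them. The stretches lie at chr3:50443614-50443763, chr5:148399905-148400054 (the first of 2 windows of the gene) and chr14:54781887-54782036, all on the minus strand.
Slc7a11: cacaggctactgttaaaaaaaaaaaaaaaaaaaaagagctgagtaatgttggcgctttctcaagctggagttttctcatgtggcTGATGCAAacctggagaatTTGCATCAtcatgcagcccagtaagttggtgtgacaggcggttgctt
Slc7a1: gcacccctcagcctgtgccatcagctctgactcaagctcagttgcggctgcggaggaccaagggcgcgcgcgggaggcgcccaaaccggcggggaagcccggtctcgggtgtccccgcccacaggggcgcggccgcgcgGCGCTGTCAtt
Slc7a8: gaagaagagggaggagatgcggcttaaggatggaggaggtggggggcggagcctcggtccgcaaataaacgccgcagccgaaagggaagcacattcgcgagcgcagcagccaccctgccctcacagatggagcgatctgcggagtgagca

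In *Slc7a11* the amino acid response element letters occurred once on each strand, with first bases at -66 and -47 from the start. The *Slc7a1* stretch shown held 1 match to the antioxidant core, at -11, whereas the same stretch of its second window held neither motif. The *Slc7a8* stretch also held neither. Windows of 300 bases, from 250 before to 50 after the start, were found for 22 of the 35 genes, and not for *Slc7a2*, among others. Of these 22 genes, *Slc7a11*, *Slc7a7* and *Slc1a4* held the amino acid response element letters and 6 held the antioxidant core, with *Slc7a11* not among the 6. By windows, 4 of their 32 held the first motif and 8 of 32 the second, and over all 32851 windows of this length the shares were 3.97% and 12.4%. These matches describe the letters of the windows only.

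The SLC38 and SLC1 families hold sodium-dependent carriers of glutamine and other small neutral amino acids. By the probe sets used, 6 of 7 compared SLC38 genes and 3 of 3 SLC1 genes were below BMDM in mTAMs. Of all compared genes 56.6% were below BMDM there. Only *Slc38a1* and *Slc38a2* passed 2-fold, and some differences were small, such as -0.10 for *Slc1a4* and -0.16 for *Slc38a9*. *Slc38a2*, which encodes SNAT2, was 11.29 in BMDM, 10.38 in pTAMs and 10.14 in mTAMs, with differences of -0.91 and -1.15 against BMDM. Its other probe sets had the opposite sign, with 0.25 and 0.22 in pTAMs and 0.51 and 0.24 in mTAMs, so the direction of *Slc38a2* was not settled. *Slc38a1*, which encodes SNAT1, was 9.49, 9.13 and 8.37, 2.17-fold lower in mTAMs than in BMDM, with a log2 difference of -0.58 by its second probe set. *Slc38a1* and *Slc38a2* were within 2-fold after cyclic loess normalization. *Slc1a5*, which encodes the glutamine exchanger ASCT2, was 8.33, 8.32 and 7.57, thus nearly equal in BMDM and pTAMs and 1.68-fold lower in mTAMs than in pTAMs. Its second probe set, near the floor, lay between 5.58 and 5.60. *Slc38a6* was 9.53, 9.13 and 8.57 and *Slc38a7*, which encodes a lysosomal exporter of glutamine and asparagine, was 8.01, 7.55 and 7.19. The other 2 SLC38 genes above the floor were *Slc38a10*, with 10.59, 10.26 and 10.23, and *Slc38a3*, with values from 5.98 to 6.03, beside *Slc38a9* of the lysosome. *Slc1a7*, a glutamate carrier, was 6.10 in BMDM and 5.82 in pTAMs and mTAMs.

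Carriers of the lysosomal membrane that take part in amino acid sensing varied little. *Slc38a9*, an arginine sensor of mTORC1, was 7.21 in BMDM, 7.54 in pTAMs and 7.05 in mTAMs. Its other probe sets above the floor gave differences between -0.75 and 0.80 against BMDM, and by 1 of them it was 2-fold lower in mTAMs than in pTAMs, in place of -0.49 on the log2 scale. *Slc36a1*, a proton-coupled exporter of small amino acids, was 8.12, 8.57 and 8.49. *Slc36a4* of the same family was 9.42, 8.87 and 9.02, and *Slc36a2* lay between 5.77 and 6.03. No gene of the Slc36a group was 2-fold different in any comparison.

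Members of these families with substrates other than amino acids of proteins had some of the larger negative differences. *Slc6a8*, which encodes the creatine carrier, was 9.18 in BMDM, 7.61 in pTAMs and 7.30 in mTAMs, 2.97-fold and 3.68-fold lower. Its second probe set gave -1.57 and -1.84, nearly the same as -1.57 and -1.88. *Slc43a3*, which encodes a carrier of purine nucleobases, was 7.89, 6.26 and 6.57, 3.1-fold and 2.5-fold lower. *Slc6a6*, which encodes the taurine carrier, was 11.93, 10.67 and 11.12, 2.39-fold lower in pTAMs and 1.75-fold lower in mTAMs. Further probe sets of *Slc6a6* gave -1.15 and -1.07 in pTAMs, and the last one, near the floor, gave 0.00. *Slc6a4*, which encodes the serotonin carrier, was 5.39, 5.68 and 6.53 and so 2.2-fold higher in mTAMs than in BMDM. Markers of mast cells or basophils had the same order of arrays in their sum and in *Hdc* (6.20, 9.99 and 12.40) and *Kit* (4.00, 5.95 and 8.83). *Mcpt8* (8.90), *Cpa3* and *Ms4a2* exceeded the floor in mTAMs only, and *Gata2* was 5.71, 5.71 and 7.15. *Mcpt4*, *Tpsb2* and *Fcer1a* were at background. The sums of the neutrophil, fibroblast, lung epithelium and lymphocyte markers also had the order of *Slc6a4*. Whether other cells contributed to the *Slc6a4* value was not tested. *Slc7a6os*, which is not a carrier, was 5.96, 6.06 and 6.57.

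**Figure D2:**
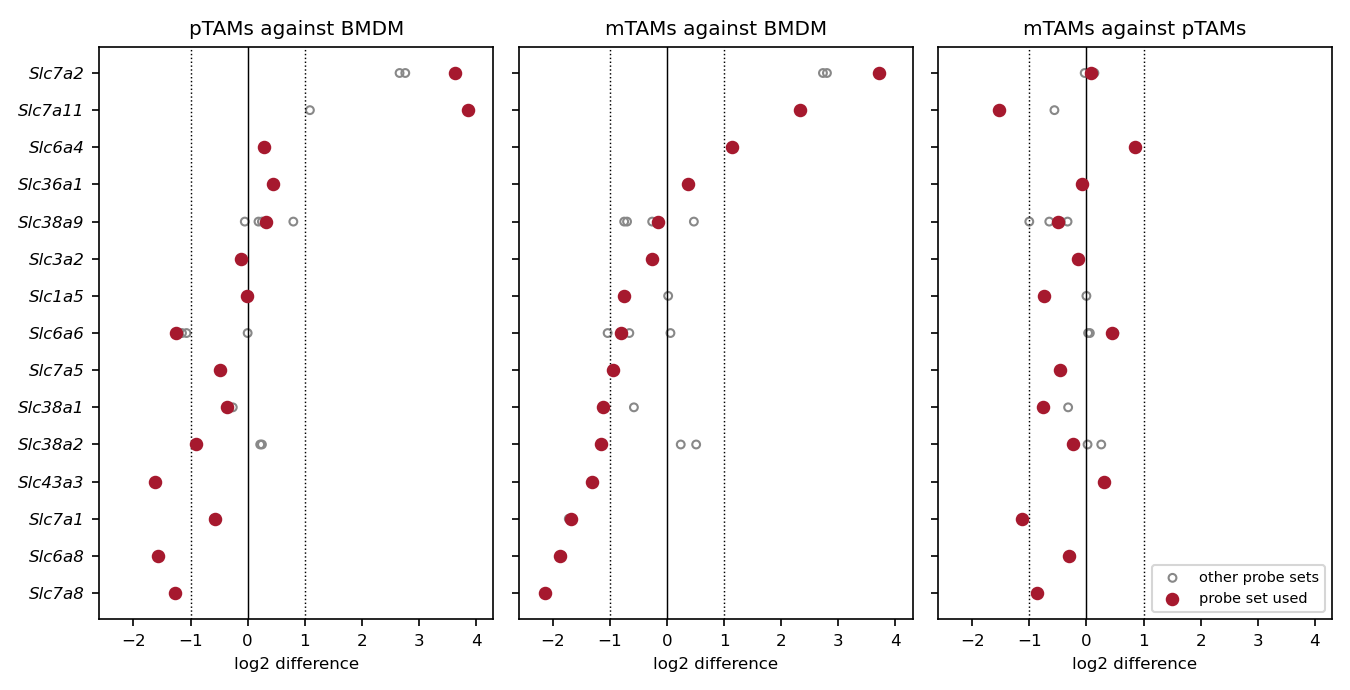
Log2 differences (horizontal axis) of 15 transporter genes in the 3 comparisons, with the probe set used as a filled point and further probe sets of the gene that exceed the floor on either array compared as open points. Dotted lines mark 2-fold. *Slc7a2* and *Slc7a11* lie to the right against BMDM by every probe set shown, whereas the open points of *Slc38a2* lie on the other side of 0 from the filled one.

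Of 7 genes for the synthesis of serine, glycine and asparagine above the floor, 2 were at least 2-fold lower in pTAMs than in BMDM (median -0.77). In mTAMs 5 were lower (median -1.43), and none was higher in either kind of TAM. Over all compared genes 7.50% were lower in pTAMs and 14.4% in mTAMs, with medians of -0.05 and -0.11. *Asns*, which encodes asparagine synthetase, was 10.34 in BMDM, 8.66 in pTAMs and 8.35 in mTAMs, 3.2-fold and 3.97-fold lower. *Mthfd2*, a mitochondrial enzyme of one-carbon metabolism, was 10.24, 8.61 and 7.44, 3.1-fold and 6.96-fold lower. *Psat1*, which encodes phosphoserine aminotransferase, was 10.04, 9.06 and 8.27, and *Shmt2*, which encodes mitochondrial serine hydroxymethyltransferase, was 9.49, 9.15 and 8.06. *Phgdh*, which encodes the first enzyme of serine synthesis, was 8.28, 7.86 and 8.32, and *Shmt1*, the cytosolic counterpart of *Shmt2*, was 7.24 on all arrays. *Slc7a1*, *Slc7a5*, *Slc7a8* and *Slc38a1* had the same order of arrays as *Asns*, *Mthfd2*, *Psat1* and *Shmt2* by the probe sets used. That order, BMDM above pTAMs and pTAMs above mTAMs, held for 51.9% of the varying transporter genes and 38.4% of all varying genes. *Phgdh* and *Shmt1* did not have it. In the list of glutamine, glutamate and proline enzymes *Aldh18a1*, an enzyme of proline synthesis, was 2.23-fold lower in mTAMs than in BMDM. *Gpt2*, which encodes an alanine aminotransferase, was 6.65, 6.54 and 6.06 by the probe set used, and by a second it was 6.99, 6.48 and 5.17, with mTAMs at background. Of the enzymes of tryptophan, phenylalanine and branched-chain amino acids, *Kynu*, which encodes kynureninase, was at least 1.59-fold higher in pTAMs and at least 2.83-fold higher in mTAMs. The second probe set of *Kynu* was at background throughout (4.01, 4.21 and 4.44). *Bckdhb* of the branched-chain ketoacid dehydrogenase was 2.48-fold and 2.2-fold lower. *Dbt* of the same complex was 1.66-fold and 2.55-fold lower, whereas *Bckdha* was 7.61, 7.66 and 8.06. *Ido1*, *Ido2*, *Tdo2*, *Il4i1* and *Bcat1* were at or below the floor on all arrays.

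**Figure D3:**
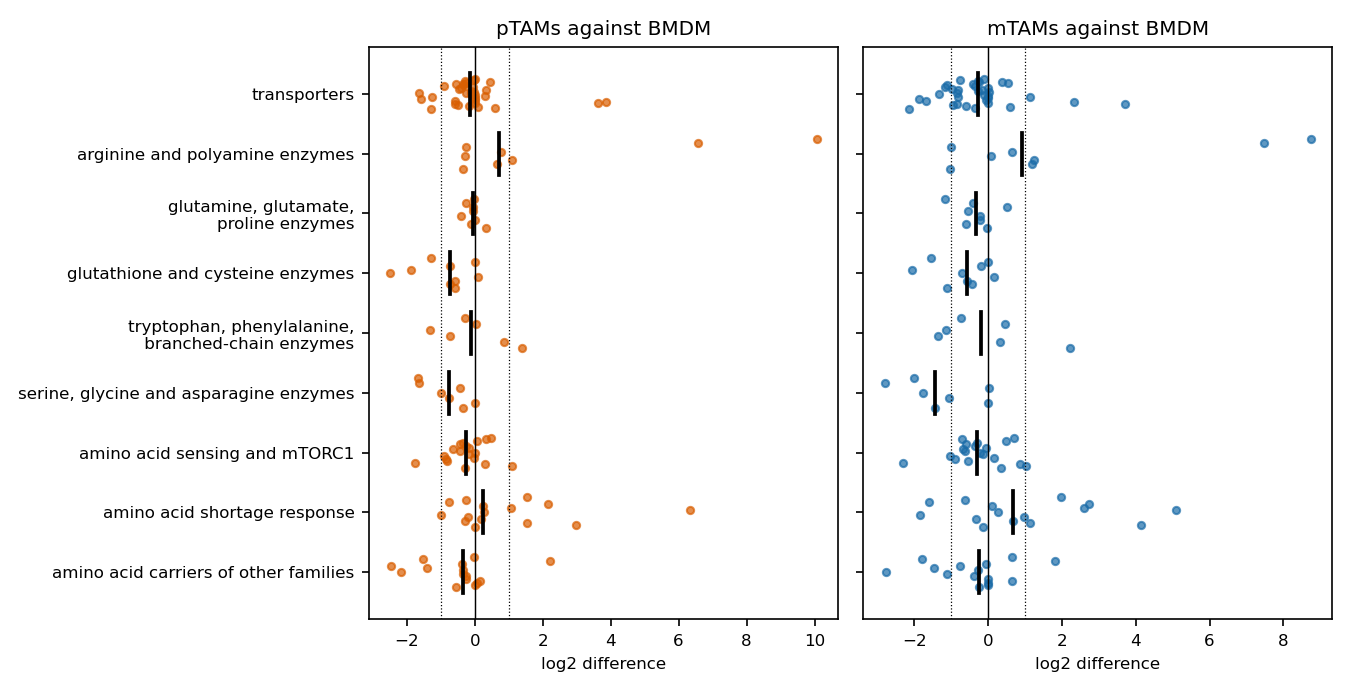
Log2 differences against BMDM (horizontal axis) of pTAMs (left) and mTAMs (right) for the transporter genes and 8 lists of related genes, 1 point per gene that exceeded the floor on either array, with the median of each list as a bar and dotted lines at 2-fold. *Arg1* and *Arg2* lie farthest right in both panels, and the serine, glycine and asparagine enzymes have medians of -0.77 and -1.43.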

How the data were processed

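The authors deposited 1 table of log2 values made by RMA from Affymetrix arrays, background-corrected, quantile-normalized and summarized for each of 45037 probe sets, and rounded to 2 decimals. Its version was not stated in the sources used here. Quantile normalization hides a shift of the whole transcriptome. The number of arrays, 1 per group, limits the precision. Of the probe sets, 34945 had 1 platform symbol and were used, 932 had several and 9160 had none. All 63 transporter genes matched a RefSeq gene ID of GRCm38.p6, with the same symbol. Where a gene had several probe sets, the one of highest average over the 3 arrays was used. A gene above 5.3 on either array of a pair was compared, as a log2 difference without a test. Folds against background values were taken from 5.3 itself and printed as "at least". The families, gene lists and rules were chosen with earlier results of these data known. All transporter genes with a difference of at least 1, and *Slc3a2*, *Slc7a5*, *Slc7a11*, *Slc7a1*, *Slc7a2*, *Slc1a5*, *Slc38a2*, *Slc38a9* and *Slc36a1* whatever theirs, were described in full. From each list up to 3 genes per direction were to be named, and further list genes were named after their values were seen. Lists of related genes (8) and of cell type markers (8) were used. Calls were tested on simulated data with known differences. Alternatives were the average of a gene's probe sets, median-centering, quantile normalization, cyclic loess, a floor 1 log2 unit higher, values raised to the floor, and a 3-fold threshold. Work was done in Python 3.11.15 with pandas 2.3.3 and numpy 2.4.6 and in R 4.3.3 with limma 3.58.1.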

Additional observations from a re-analysis of the deposited data

How the results depend on the processing

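The genes at least 2-fold higher were *Slc7a11* and *Slc7a2* in pTAMs against BMDM under all 7 alternatives. Some of these could hardly have changed the calls. Quantile normalization repeated a step already applied to the deposited values. Median-centering moved the log2 differences only from 3.86 to 3.79 for *Slc7a11* and from 3.63 to 3.56 for *Slc7a2*. In mTAMs against BMDM *Slc7a2*, *Slc7a11* and *Slc6a4* were higher under 6, and *Slc6a4* was not with a 3-fold threshold. Between mTAMs and pTAMs no gene was higher under any alternative. The 3-fold threshold left 1 lower gene in pTAMs against BMDM (*Slc43a3*), 3 in mTAMs against BMDM (*Slc7a8*, *Slc6a8* and *Slc7a1*) and 0 between mTAMs and pTAMs. With the mean of all probe sets, 1 gene, *Slc7a11*, was lower in mTAMs than in pTAMs, and *Slc7a1* had -0.75, with a probe set below the floor averaged in. The same alternative ended the calls of *Slc6a6* in pTAMs and of *Slc38a1* and *Slc38a2* in mTAMs against BMDM, and added *Slc7a4* in mTAMs. With a floor 1 log2 unit higher, the median differences of the transporter genes were -0.34, -0.68 and -0.29 in pTAMs against BMDM, mTAMs against BMDM and mTAMs against pTAMs, over 24, 26 and 26 genes. After cyclic loess normalization, the median in mTAMs against BMDM was -0.11, where the median of all genes moved from -0.11 to 0.02, and 4 genes were lower in place of 6. Of 180 single-gene values under alternatives, 11 moved by more than the spread between probe sets, all with the mean of all probe sets, and none of the called values changed sign. No paired analysis was possible because each group had 1 array.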

Other observations

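Some amino acid carriers of other families also differed by more than 2-fold. *Slc16a10*, which encodes a carrier of aromatic amino acids, was 9.75 in BMDM, 7.28 in pTAMs and 8.99 in mTAMs, 5.54-fold lower in pTAMs than in BMDM and 3.27-fold higher in mTAMs than in pTAMs. Its second probe set gave -2.22 and 0.51 for these, and the remaining probe sets, near the floor, between -0.24 and 0.36. *Slc15a3*, which encodes a lysosomal carrier of histidine and small peptides, was 4.66-fold and 3.53-fold higher in pTAMs and mTAMs than in BMDM. *Slc25a13*, a mitochondrial exchanger of aspartate and glutamate, was 4.47-fold and 6.73-fold lower. *Mfsd12*, a carrier of cysteine into lysosomes and related organelles, was 2.85-fold and 3.46-fold lower. Of 15 genes of this list, all above the floor, 1 was at least 2-fold higher and 4 lower against BMDM in each kind of TAM. Over all compared genes 8.78% were higher and 7.50% lower in pTAMs, and 11.5% higher and 14.4% lower in mTAMs.

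Genes listed for the amino acid shortage response did not have one direction. The list also held *Eif2ak1*, *Eif2ak2*, *Eif2ak3* and *Nfe2l2*, which are not particular to amino acid shortage. *Ddit4*, an inhibitor of mTORC1, was 4.71 in BMDM, 11.04 in pTAMs and 9.81 in mTAMs, at least 53.4-fold and 22.8-fold higher. *Ppp1r15a*, *Cebpb*, *Ddit3* and *Atf3* were also at least 2-fold higher in both kinds of TAM, while *Atf4* was 11.66, 11.41 and 11.03, *Trib3* was 6.92, 6.93 and 6.79 and *Atf5* was 3.01-fold lower in mTAMs. Of 15 genes of this list above the floor, 6 were at least 2-fold higher in each kind of TAM than in BMDM. The genes *Eif2ak2* and *Atf5* were at least 2-fold lower in mTAMs. Among all compared genes 8.78% were higher in pTAMs and 11.5% in mTAMs, and 14.4% were lower in mTAMs. Among 19 genes of amino acid sensing and mTORC1, *Sesn1* was 3.41-fold and 4.89-fold lower and *Sesn3* 2.13-fold and 2.03-fold higher in pTAMs and mTAMs. *Rptor* was 2.04-fold lower in mTAMs, and the other 16 were within 2-fold of BMDM by the probe sets used. *Sesn2* was 7.33, 7.63 and 8.21 by the one used, but 6.60, 7.25 and 8.85 by its second, a difference of 2.25 in mTAMs against BMDM.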
